A study of Mus musculus with 17 samples.

Results

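The expression of 10 genes of the major histocompatibility complex (MHC) class I pathway was followed in 17 mouse RNA-seq samples. They were H2-K1 and H2-D1 (class I heavy chains), B2m (the light chain), Tap1 and Tap2 (peptide transporter), Tapbp (tapasin), Psmb8 and Psmb9 (immunoproteasome subunits), Nlrc5 (class I transactivator) and Irf1 (interferon regulatory factor). The genes were taken by symbol from the 23891 symbols in the files. Each was represented by the RefSeq transcript with the highest mean FPKM (fragments scaled to transcript length and library size) over the 17 samples. All 10 genes were found, with 14 of the 32661 transcripts, and all 10 reached 1 FPKM in at least 2 samples.

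The samples comprised 4 lines of spermatogonial stem and progenitor cells (SSC) from adult mouse testis and 6 lines of multipotent adult spermatogonial-derived stem cells (MASC). MASCs arose from SSCs during long culture, were picked as colonies and were subcloned. There were also 2 embryonic stem cell (ESC) lines, 2 induced pluripotent stem (iPS) cell lines, 2 cultures of haematopoietic stem and progenitor cells (HSC) and 1 sample of mouse embryonic fibroblasts (MEF). A number after the name marks the line, as in SSC.2. The strain label was Oct4-GFP for SSC.1, SSC.2, MASC.1, MASC.2 and ESC.1. It was 129mix, a mix of C57Bl6 and 129S, for SSC.4, MASC.3, MASC.4, ESC.2, both iPS lines and MEF. MASC.5 and MASC.6 were Gt(ROSA26)Sor-lacZ, and SSC.3 and both HSC cultures were C57Bl/6J. The iPS lines came from fibroblasts of tetO-4F2A x H3.3B-HA embryos at E13.5, reprogrammed with doxycycline at 2 μg/ml, and the MEF sample came from H3.3B-HA embryos of that stage. SSCs, MASCs, ESCs and iPS cells were all grown on MEF feeder cells. SSCs had a medium of their own with GDNF and were placed on gelatin before collection to remove feeder cells. HSCs were lineage-depleted bone marrow cells grown on E4ORF1-HUVECs, a human endothelial feeder. The labels do not say which lines came from separate animals, so p-values measure the spread between these lines.

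Class I molecules show peptides from inside the cell to CD8 T cells and to natural killer cells. The proteasome cuts cytosolic proteins into peptides, and interferon adds the immunoproteasome subunits Psmb8, Psmb9 and Psmb10 in place of Psmb5, Psmb6 and Psmb7. Tap1 and Tap2 form the pump that carries peptides into the endoplasmic reticulum, where tapasin holds the empty heavy chain with B2m until a peptide is bound. Nlrc5 acts at the conserved upstream module of class I promoters together with RFX, CREB/ATF and NF-Y factors. Irf1 is itself induced by interferon-gamma and binds interferon response elements upstream of many genes of the pathway. Pluripotent and germ line cells are known for low class I at the surface.

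In the files, which use mm9, 7 of the 10 genes were on chromosome 17. H2-K1 was at chr17:34132957-34137278 and H2-D1 at chr17:35400039-35404442, with Tapbp at chr17:34056423-34066235. Psmb9 (chr17:34319044-34324275), Tap1 (chr17:34324501-34334170), Psmb8 (chr17:34335140-34338399) and Tap2 (chr17:34341424-34353266) were neighbours within 34223 bases. B2m was at chr2:121973423-121978818, Nlrc5 at chr8:96996663-97051172 and Irf1 at chr11:53583516-53590826. These spans run over the exons and introns of each transcript.

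Upstream sequences were found in RefSeq (GRCm38.p6) for 8 of the 10 genes, all but Tap2 and Nlrc5. Those of H2-K1, H2-D1, B2m and Irf1 are shown, because the first 3 encode the class I molecule itself and Irf1 differed from them in its pattern over the samples. Capitals mark matches, on either strand, to GAANNGAAA (interferon response), GAAA and GAAA around any pair of bases (interferon-stimulated response element, ISRE), GGG and TTCCC around any pair of bases (kappa B), TTCNNNGAA (gamma-activated site, GAS), TGACGC (X2 box) and CCAAT (NF-Y). No matches overlap in these stretches, each of which lies before the transcription start and is printed 5′ to 3′ on the strand of its gene.
H2-K1, chr17:34000348-34000467, minus strand: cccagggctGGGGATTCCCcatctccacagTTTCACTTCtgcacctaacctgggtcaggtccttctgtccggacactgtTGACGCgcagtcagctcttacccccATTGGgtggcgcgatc
H2-D1, chr17:35262914-35263033, plus strand: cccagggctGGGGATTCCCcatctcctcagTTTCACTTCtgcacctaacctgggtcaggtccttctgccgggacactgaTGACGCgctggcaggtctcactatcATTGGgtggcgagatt
B2m, chr2:122147527-122147646, plus strand: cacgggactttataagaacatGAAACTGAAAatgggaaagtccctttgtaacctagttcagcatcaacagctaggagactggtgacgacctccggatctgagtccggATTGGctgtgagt
Irf1, chr11:53769894-53769973, plus strand: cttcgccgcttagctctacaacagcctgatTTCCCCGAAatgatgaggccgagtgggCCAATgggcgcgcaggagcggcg

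The printed stretches of H2-K1 and H2-D1 were identical at 107 of 120 bases, with the kappa B, interferon response, X2 and CCAAT matches at the same spacing in both. In H2-D1 this block lay 60 bases farther from the annotated start than in H2-K1. B2m held the ISRE form in place of the interferon response form, with a CCAAT match at -53 to -49 from its start. Irf1 held a GAS match at -90 to -82 from its start, and Psmb8 held another at -97 to -89. The transcription starts of Tap1 and Psmb9 pointed away from each other and were 226 bases apart. Among 32851 mouse promoters, the 250 bases before the start held GAANNGAAA in 6.31%, the ISRE form in 2.98%, the kappa B form in 1.53%, TTCNNNGAA in 7.02%, TGACGC in 6.12% and CCAAT in 33.8%. A match is a description of letters only.

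Labels were checked against markers, and feeder RNA was measured before the members were read. Each pluripotent line had all 8 pluripotent markers at 1 FPKM or more and each SSC line had 7 or 8 of 8 spermatogonial markers, while both HSC cultures had all 8 blood markers. SSC lines also had 3 or 4 of the 8 pluripotent markers at that level, with Pou5f1 at 94.5 FPKM in SSC.1 and 1.37 to 5.42 in the others, and MASC.6 had 6 of 8 spermatogonial markers, against 2 to 4 in the other MASC lines. The MEF sample also had all 8 blood markers at 1 FPKM or more and the macrophage genes Csf1r and Cd14 at 64.4 and 97.5 FPKM, and their part in its class I level was not tested. The fibroblast share of a sample was taken as the median, over 16 fibroblast markers, of the ratio of its FPKM to that in MEF. It was 25.9% in MASC.1, 13.7% in SSC.3, 10.5% in HSC.2, 9.39% in ESC.1 and 5.67% in SSC.1, and between 0.0327% (HSC.1) and 3.12% (MASC.2) elsewhere. The share is a rough measure, since the ratios of single markers differed widely. They ran from 5.10% to 80.5% in MASC.1, 2.91% to 56.2% in SSC.3 and 0.641% to 94.9% in HSC.2. Testis somatic markers summed to 28.5 to 34.4 FPKM in SSCs against 23.8 to 92.8 FPKM in MASCs, and endothelial markers to 43.0 and 44.7 FPKM in the HSC cultures against at most 21.8 FPKM in the other samples. In HSC.1, 1 of the 7 endothelial markers was at 1 FPKM or more, Pecam1 at 42.3 FPKM, with Emcn at 0 and Esam and Cdh5 at 0.240 and 0.0242 FPKM, whereas 6 of 7 were in HSC.2. The part of these cells in the members' levels was not tested. In such bulk samples, fewer cells of a type and less RNA per cell cannot be told apart.

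**Figure D1:**
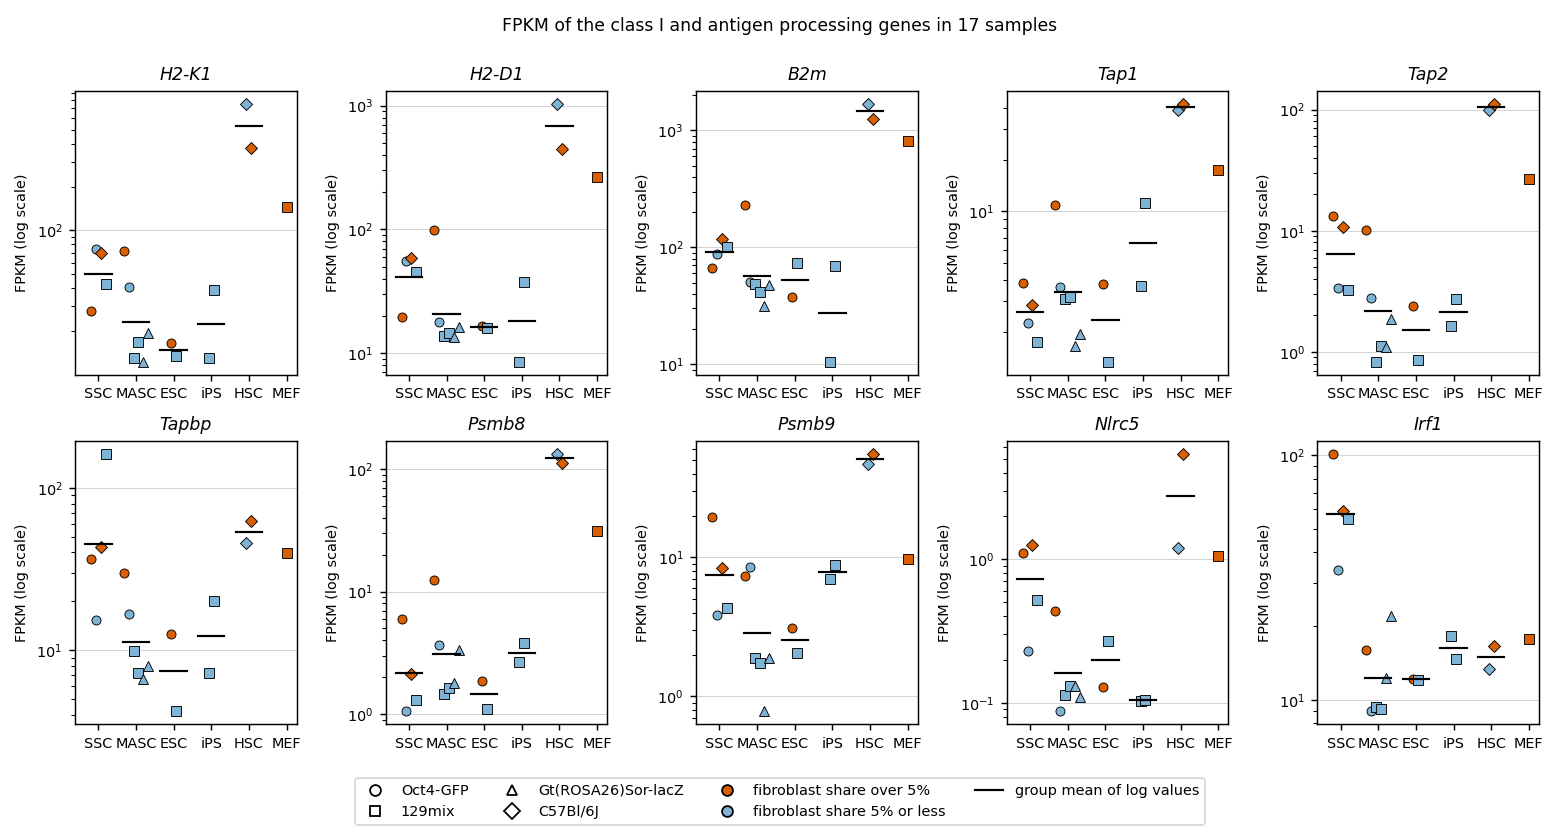
FPKM (log scale) of each of the 10 genes in the 17 samples, by cell type. Marker shape gives the strain label, orange marks a fibroblast share over 5%, and the short line is the group mean of log2(FPKM + 1). Both HSC cultures sit above all other samples for 7 of the 10 genes, and Irf1 is highest in the 4 SSC lines.

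H2-K1 and H2-D1, the heavy chains, were highest in HSCs, followed by MEF and then by all cultured germ line and pluripotent lines. H2-K1 had an FPKM of 27.6 in SSC.1, 74.5 in SSC.2, 69.98 in SSC.3 and 42.4 in SSC.4. In the MASC lines it was lowest at 12.4 (MASC.5), with a median of 18.1, and highest at 72.4 (MASC.1). It was at 16.5 and 13.4 FPKM in the ESC lines, 13.0 and 38.5 in the iPS lines, 751 and 375 in the HSC cultures and 146 in MEF. SSC and MASC lines overlapped because of MASC.1 and MASC.2, and every SSC line was above both ESC lines.

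For H2-D1 the SSC lines had 19.5, 55.8, 59.1 and 45.0 FPKM, in order of their numbers. The MASC lines ran from 13.4 (MASC.5) through a median of 15.4 to 98.4 FPKM (MASC.1). Values were 16.44 and 15.96 FPKM in ESCs, 8.55 and 37.4 in iPS cells, 1028 and 447 in HSCs and 265 in MEF. Without MASC.1, the highest MASC line (MASC.2, 17.7 FPKM) was below the lowest SSC line. The share of all transcripts that separate in this way without MASC.1 was not counted. Across the 17 samples, log2(FPKM + 1) of H2-K1 and H2-D1 had a Pearson's r of 0.976, the highest of the 45 pairs of members. This is a description over samples that share cell types and feeders.

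The heavy chain genes resemble each other and their neighbours. In the mouse transcripts of gencode vM1, 8.87% of the 50-base windows of H2-K1 and 14.3% of those of H2-D1 also occurred in other genes, against 0 for B2m, Psmb8, Psmb9 and Irf1. Reads that mapped to more than 1 place had been excluded by the authors, and how many heavy chain reads this removed was not tested. The related transcript H2-L, annotated at the H2-D1 locus, was listed at 0.001% to 12.4% of the H2-D1 level, and how Cufflinks split reads between them was not tested. The H2 haplotypes of the strains are not given in the labels, and the effect of strain alleles on the mapping was not tested.

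B2m encodes beta-2-microglobulin, the light chain shared by all class I molecules. Its FPKM in SSC.1 to SSC.4 was 66.7, 88.3, 118.6 and 101.4. The MASC lines had a lowest value of 31.4 (MASC.5), a median of 48.1 and a highest value of 231 (MASC.1). ESC.1 and ESC.2 had 37.4 and 74.1 FPKM, and iPS.1 and iPS.2 had 10.5 and 69.1. HSC.1 reached 1683, HSC.2 1255 and MEF 818 FPKM. All MASC lines other than MASC.1 were below all SSC lines, while ESC.2 lay within the SSC range. As for H2-D1, the share of all transcripts that separate without MASC.1 was not counted.

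Level and feeder share were set side by side for these genes. The share is a median, and the ratios of single markers ran from 5.10% to 80.5% in MASC.1, so the products are rough. If feeder RNA carried class I transcripts at the MEF level, the share of MASC.1 would bring 37.9 FPKM of H2-K1, 68.7 of H2-D1 and 212 of B2m, which is 52.4%, 69.8% and 91.7% of what was measured there. In ESC.1 the same product for B2m came to 206% of the measured level, which is more than the line had. SSC.2, with a fibroblast share of 0.174%, had the highest H2-K1 of the SSC lines, and the product was 0.342% of its level. HSC.1, with the lowest share of all samples, had more H2-K1, H2-D1 and B2m than HSC.2. In the other members, the product for MASC.1 was between 28.7% (Irf1) and 67.4% (Tap2) of the measured level, and that for SSC.3 between 4.10% (Irf1) and 201% (Psmb8).

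**Figure D2:**
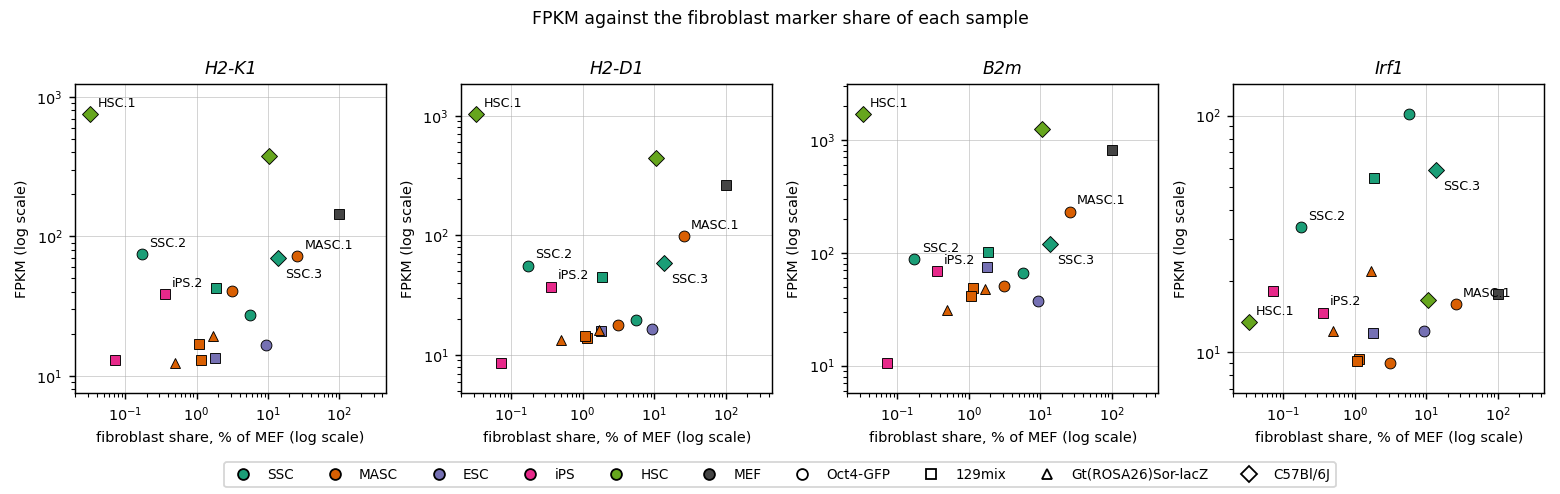
FPKM of H2-K1, H2-D1, B2m and Irf1 against the fibroblast share of each sample (percent of MEF), both on log scales, with colour for the cell type and shape for the strain label. MASC.1, at a share of 25.9%, is the highest MASC line for the first 3 genes, while SSC.2 and HSC.1 are high at shares of 0.174% and 0.0327%.

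Tap1 and Tap2, the subunits of the peptide pump, differed in their balance between the cell types. Tap1 was low in SSCs, at 3.85, 2.25, 2.87 and 1.75 FPKM in SSC.1 to SSC.4. Its MASC values ran from 1.65 to 10.9 FPKM (MASC.1) with a median of 3.14, and the iPS lines had 3.67 and 11.1. Tap2 in SSC.1 to SSC.4 was 13.3, 3.35, 10.7 and 3.26 FPKM, against 0.832 to 10.2 FPKM (MASC.1) with a median of 1.504 in MASCs. The 2 ESC lines had 2.39 and 0.858 FPKM of Tap2 and 3.79 and 1.34 of Tap1. Within each sample, Tap2 stood at 149% to 374% of Tap1 in the 4 SSC lines and at 26.8% to 96.8% in the 6 MASC lines, without overlap. The ratio was 63.0% and 63.9% in ESCs, 44.6% and 24.5% in iPS cells, 252% and 264% in HSCs and 151% in MEF. How often ratios of other gene pairs separate SSC from MASC lines was not tested. Of single transcripts, 15.4% had every MASC line below every SSC line. In HSCs, Tap1 reached 39.0 and 42.0 FPKM and Tap2 98.4 and 111 FPKM.

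Tapbp, the bridge between the pump and the heavy chain, was the member most uneven among SSCs. It had 36.4, 15.4, 43.4 and 162 FPKM in SSC.1 to SSC.4. MASC lines had 6.64 to 29.7 FPKM with a median of 8.99, ESCs 12.6 and 4.21, iPS cells 7.27 and 20.2, HSCs 46.0 and 62.1 and MEF 39.7 FPKM. SSC.4 was thus above both HSC cultures, and of the MASC lines MASC.1 and MASC.2 overlapped with SSCs. The transcript used carried 59.7% of the FPKM of the gene, which has 2 listed transcripts.

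Psmb8 and Psmb9, whose products replace constitutive proteasome subunits, were near or below 10 FPKM in most lines. Psmb8 was at 1.06 to 5.98 FPKM in SSCs, 1.46 to 12.3 in MASCs, 1.88 and 1.10 in ESCs and 2.66 and 3.79 in iPS cells. HSCs had 133 and 112 FPKM of Psmb8, and MEF 31.5. Psmb9 was at 19.7, 3.86, 8.46 and 4.30 FPKM in SSC.1 to SSC.4 and from 0.780 to 8.54 in MASCs. ESCs had 3.10 and 2.05 FPKM of Psmb9, iPS cells 6.95 and 8.84, HSCs 47.0 and 55.8 and MEF 9.68. For both genes SSC and MASC ranges overlapped.

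The constitutive partners stayed high, so the exchangeable pairs were compared within samples. Psmb8 stood at 0.474% to 4.91% of Psmb5 in all SSC, MASC, ESC and iPS lines, against 61.5% and 93.7% in HSCs and 18.6% in MEF. Psmb9 stood at 2.37% to 6.98% of Psmb6 in SSCs, 0.358% to 2.85% in MASCs, 1.18% and 0.904% in ESCs and 3.20% and 4.37% in iPS cells. It was 27.7% and 51.9% in HSCs and 6.64% in MEF. Psmb10, the remaining exchangeable subunit, stood at 33.6%, 7.73%, 31.1% and 21.5% of Psmb7 in SSC.1 to SSC.4, against 3.84% to 9.11% in MASCs. It was 27.5% and 44.2% in HSCs and 21.2% in MEF, so SSC.1 and SSC.3 were above MEF and HSC.1. SSC.2, the SSC line with the least fibroblast RNA, lay within the MASC range for Psmb10, and SSC.2 and SSC.4 lay within it for Psmb9. The part of feeder RNA in these ratios was not tested.

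**Figure D3:**
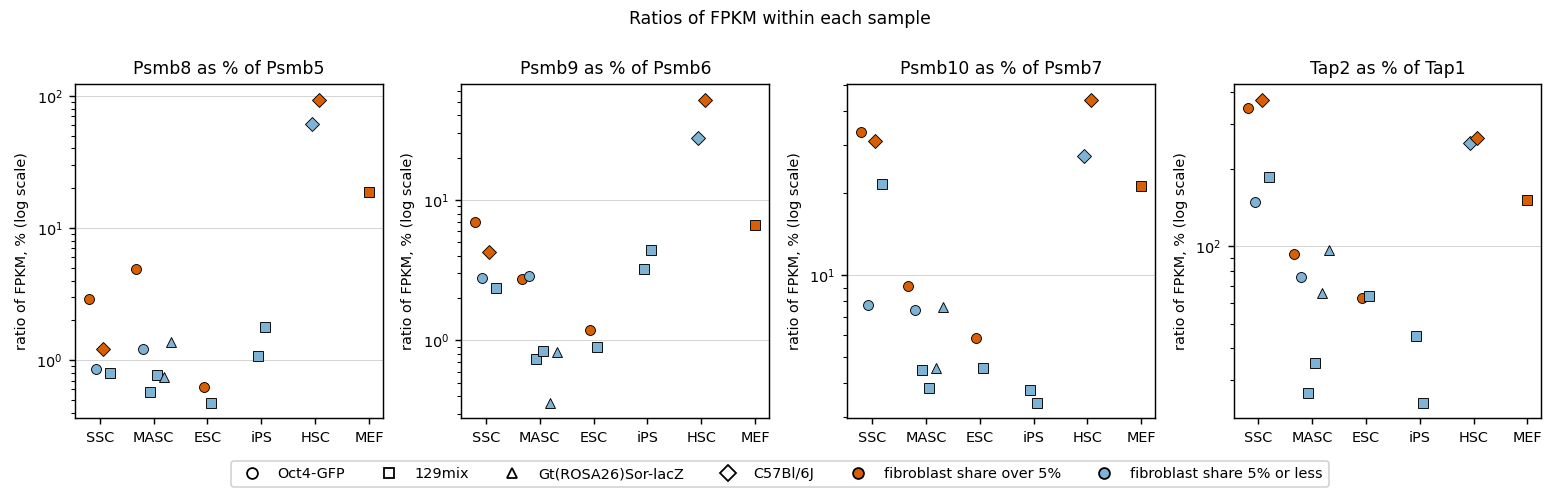
Ratio of FPKM within each sample, in percent on a log scale, for Psmb8 to Psmb5, Psmb9 to Psmb6, Psmb10 to Psmb7 and Tap2 to Tap1, by cell type. HSCs have the highest ratios for Psmb8 and Psmb9 (61.5% and 27.7% or more). The Tap2 to Tap1 ratio is 149% or more in the 4 SSC lines and 96.8% or less in the 6 MASC lines, a difference that was not tested.

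Nlrc5, the class I transactivator, was close to the detection limit in pluripotent lines. It was at 1.10, 0.228, 1.26 and 0.517 FPKM in SSC.1 to SSC.4 and at 0.0872 to 0.437 FPKM in MASCs, where MASC.1 was highest and the median was 0.122. ESCs had 0.129 and 0.269 FPKM and iPS cells 0.103 and 0.105. The half-width of the interval that Cufflinks gave for these values reached 47.2% of the value in MASC.2, and apart from MASC.1 and ESC.2 the intervals of the pluripotent lines overlapped. HSCs had 1.201 and 5.406 FPKM and MEF 1.056.

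Irf1 had a pattern of its own. Its FPKM was 101.3 in SSC.1, 33.8 in SSC.2, 58.9 in SSC.3 and 54.7 in SSC.4. In the MASC lines the lowest value was 8.96 (MASC.2), the median 10.8 and the highest 21.9 (MASC.6). It was at 12.2 and 12.1 FPKM in ESCs, 18.2 and 14.7 in iPS cells, 13.4 and 16.6 in HSCs and 17.6 in MEF. Every SSC line was above every other sample, also SSC.2 and SSC.4, whose fibroblast shares were 0.174% and 1.87%. How many transcripts show this pattern was not counted, but 15.4% had every MASC line below every SSC line. The MEF level itself was below that of each SSC line. Over the 17 samples, r between Irf1 and each of the other members lay between -0.18 (Tap1) and 0.55 (Tapbp).

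The order of the cell types by mean log2 level was HSC, MEF and then the remaining groups for every member except Irf1, and for Tapbp SSCs came between HSCs and MEF. For 7 of the 10 members both HSC cultures were above every line, which held for 10.3% of all transcripts. SSC came next after MEF for H2-K1, H2-D1, B2m, Tap2 and Nlrc5, and iPS for Tap1, Psmb8 and Psmb9. Neighbours in the order among SSCs, MASCs, ESCs and iPS cells overlapped in their ranges for all members other than Irf1. For Irf1 the order was SSC, MEF, iPS, HSC, MASC and ESC, with a gap after SSC and overlap between all later neighbours, for which MEF is 1 sample.

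MASCs were compared with SSCs to see which members differ between germ line stem cells and the pluripotent cells derived from them. Irf1 was lower in MASCs, and it was the single member past the threshold. The means of the other members differed by up to 1.90 on the log2 scale, but the lines of each group were spread widely. Tests were made with limma on log2(FPKM + 1) over the 32661 transcripts, and a transcript was called at a Benjamini-Hochberg adjusted p under 0.05 and an absolute log2 difference of at least 1. Of the members 1 of 10 was called lower and 0 higher, while 9.6% of all transcripts were called lower and 6.04% higher, so the share of members called was close to that of all transcripts.

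The log2 difference of Irf1 was -2.15 ± 0.32 (SE, 6 MASC and 4 SSC lines) with an adjusted p of 7.65e-04, and all 6 MASC lines were below all 4 SSC lines. Among all transcripts, 15.4% had every MASC line below every SSC line. Nlrc5 had an adjusted p of 0.0268 and a difference of -0.57 ± 0.17. Its SSC mean was 0.79 on the log2(FPKM + 1) scale, so no MASC level could have reached a difference of -1. Its mean FPKM was 0.777 in SSCs and 0.168 in MASCs. For Tapbp the difference was -1.90 ± 0.65 with an adjusted p of 0.0502, and without SSC.2 it was called (-2.40, adjusted p 0.0190), which made 2 members lower, with 9.9% of all transcripts. With single lines left out, the difference of Tapbp ranged from -2.40 to -1.30 (adjusted p 0.0190 to 0.122). The smallest, -1.30, was found without SSC.4, the SSC line with the highest Tapbp. H2-K1 differed by -1.06 ± 0.52 (adjusted p 0.160), H2-D1 by -0.96 ± 0.57 (adjusted p 0.251) and B2m by -0.67 ± 0.51 (adjusted p 0.382). Tap2 differed by -1.24 ± 0.58 and Psmb9 by -1.13 ± 0.58, while Tap1 (0.30 ± 0.41) and Psmb8 (0.37 ± 0.52) were on the other side of 0. In all, 8 of 10 differences were below 0, with a median of -1.01, against a median of -0.0048 over all transcripts. Over the 20119 transcripts that, like the members, reached 1 FPKM in at least 2 samples, the median was -0.12.

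The number of members called depended most on MASC.1. Without it, 6 of 10 were called lower, with 9.8% of all transcripts called lower. H2-K1 then differed by -1.38 ± 0.40 (adjusted p 0.0314), H2-D1 by -1.40 ± 0.30 (adjusted p 7.14e-03) and B2m by -1.07 ± 0.24 (adjusted p 0.0107). Tap2 (-1.61 ± 0.44), Tapbp (-2.17 ± 0.63) and Irf1 (-2.22 ± 0.35) were the others. MASC.1 also had the highest fibroblast share of all lines, and interferon-stimulated genes summed to 544 FPKM in it against 106 to 189 FPKM in the other MASC lines. Bst2 alone made up 309 FPKM of the sum in MASC.1 and 67.1 to 152 FPKM in the other MASC lines. The part of the fibroblast share and of these genes in the class I level of MASC.1 was not tested.

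Without all libraries over a 5% fibroblast share, 2 SSC and 5 MASC lines were left for this comparison, and 3 members were called lower. These were H2-D1 (-1.67 ± 0.14), B2m (-1.11 ± 0.20) and Irf1 (-1.80 ± 0.40), against 9.51% of all transcripts. With the fibroblast share as a covariate 3 were called, namely Tap2 (-1.09 ± 0.22), Tapbp (-1.80 ± 0.55) and Irf1 (-2.11 ± 0.31), against 9.82% of all transcripts. Irf1 was thus called in each of these fits, and all 4 fits gave negative differences for the 8 members below 0.

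**Figure D4:**
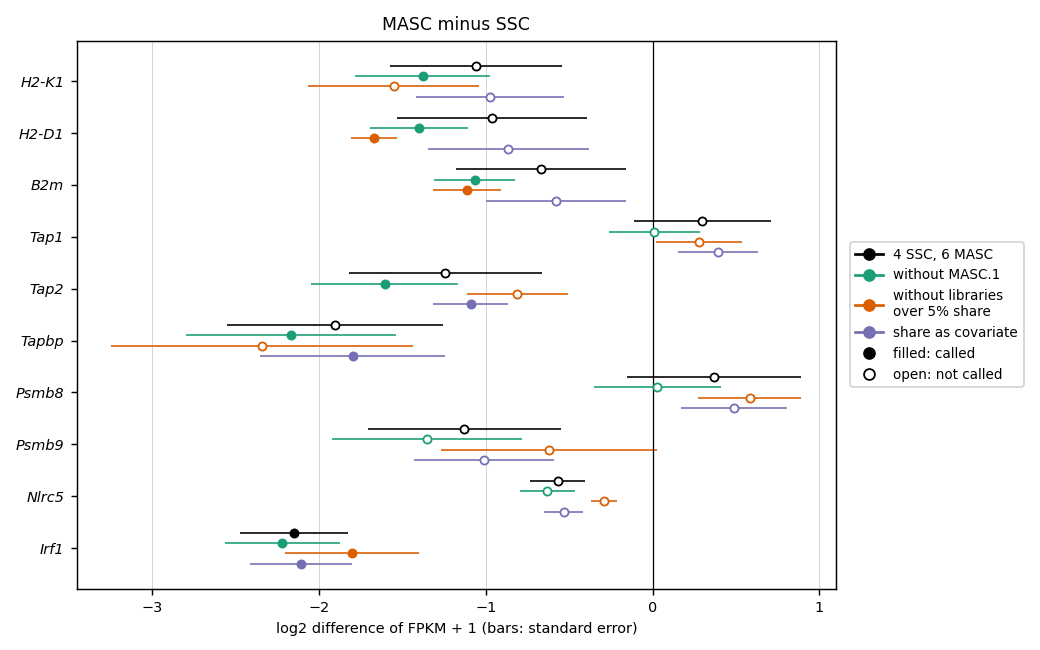
Log2 difference of FPKM + 1 between MASC and SSC lines for each member, with bars of 1 standard error, for all lines, without MASC.1, without libraries over a 5% fibroblast share, and with that share as a covariate. Filled points were called, and Irf1 is the member filled in every fit, with differences from -2.22 to -1.80.

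Within a strain label the comparison could be made for Oct4-GFP (2 MASC and 2 SSC lines) and for 129mix (2 MASC lines and 1 SSC line). Irf1 differed by -2.20 in the Oct4-GFP lines and by -2.44 in the 129mix lines. H2-K1 differed by 0.25 in Oct4-GFP, where MASC.1 is one of the lines, and by -1.46 in 129mix. The same held for H2-D1 (0.34 and -1.61) and B2m (0.49 and -1.16). These are values without a test. In the fit with strain as a block, Irf1 was again the single member called (-2.31 ± 0.41, adjusted p 7.74e-03), and H2-K1 differed by -0.46 ± 0.52.

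ESCs were compared with SSCs as the reference for pluripotent cells. Irf1 was lower in ESCs, at -2.16 ± 0.44 (2 ESC and 4 SSC lines, adjusted p 6.33e-03). It was the single member called, with 8.75% of all transcripts called lower and 4.96% higher. Without SSC.2, Tapbp was called too (-2.94, adjusted p 0.0309), but its difference ranged from -3.14 to -1.76 with single lines left out. All 10 differences were below 0, and their median was -1.28, against -0.011 over all transcripts and -0.15 over the 20119 that passed 1 FPKM. Tapbp (-2.45 ± 0.87), H2-K1 (-1.67 ± 0.69) and Tap2 (-1.57 ± 0.78) followed in size, with adjusted p of 0.0766, 0.125 and 0.199. Both ESC lines were below all 4 SSC lines for 6 members, a pattern seen in 23.1% of all transcripts. Without libraries over a 5% fibroblast share, which leaves ESC.2 as the single ESC line, the lone line is assumed to vary like the other groups. Irf1 then differed by -1.75 ± 0.59 (adjusted p 0.114) and H2-D1 by -1.59 ± 0.20, which was called lower with 7.3% of all transcripts. With the share as a covariate, Tap2 (-1.77 ± 0.30), Tapbp (-2.59 ± 0.74) and Irf1 (-2.21 ± 0.41) were called lower, with 9.6% of all transcripts. This comparison shares its SSC lines with that of MASCs, so a lower call of Nlrc5 was out of reach here too.

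ESCs and MASCs were set against each other to see whether the pluripotent lines differ. No member was called by limma, and 0 of 10 had an unadjusted p under 0.05, against 954 of the 32661 transcripts. The differences lay between -0.74 ± 0.66 (Psmb8) and 0.04 ± 0.21 (Nlrc5). Only 0.0153% of all transcripts were called higher and 0.00306% lower. With 2 ESC lines, one of them at a fibroblast share of 9.39%, the standard errors of H2-K1 (0.65), H2-D1 (0.72) and B2m (0.64) leave room for differences of more than 1 on the log2 scale.

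HSCs were compared with the pluripotent lines, that is with the mean of the MASC, ESC and iPS group means. H2-K1, H2-D1, B2m, both transporter genes, Tapbp, Psmb8, Psmb9 and Nlrc5 were higher in HSCs. Of the members 9 of 10 were called higher, with 10.3% of all transcripts called higher and 11.2% lower. The median difference over the 10 members was 4.04 on the log2 scale. It was -0.0033 over all transcripts and -0.19 over the 20119 that passed 1 FPKM. For the same 9 members both HSC cultures were above all 10 pluripotent lines, which held for 15.6% of all transcripts.

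Tap2 differed by 5.18 ± 0.65 (SE, 2 HSC cultures), Psmb8 by 5.14 ± 0.59, H2-D1 by 5.14 ± 0.74, B2m by 5.03 ± 0.71 and H2-K1 by 4.67 ± 0.65. Their adjusted p were between 3.11e-05 and 2.00e-04. Psmb9 (3.40 ± 0.65), Tap1 (3.11 ± 0.51), Tapbp (2.29 ± 0.76, adjusted p 0.0360) and Nlrc5 (1.70 ± 0.31) were also called. Tapbp missed the threshold without either HSC culture (adjusted p 0.108 and 0.205) and without ESC.2, MASC.3 or iPS.1, and Nlrc5 fell short of a difference of 1 without HSC.2 (0.93). Irf1 differed by 0.14 ± 0.37 (adjusted p 0.890), with HSC values inside the range of the pluripotent lines. The HSC cultures expressed blood markers at 1406 to 2212 FPKM in sum, against 25.7 to 102 FPKM in the pluripotent lines. Markers of antigen presenting cells summed to 15.4 and 27.1 FPKM there, with 3 of 7 at 1 FPKM or more, against 4.10 to 11.7 FPKM in the pluripotent lines and 167 in MEF. The human endothelial feeders were not measured by a mouse marker, and their part in these values was not tested.

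Strain and cell type were joined in this comparison, since both HSC cultures and, among the other samples, SSC.3 alone were C57Bl/6J. With the strain label as a block, which then rests on SSC.3, 4 members were called, with 6.71% of all transcripts called higher, namely H2-K1 (3.62 ± 1.04), Tap1 (2.59 ± 0.71), Tap2 (3.83 ± 0.89) and Psmb8 (4.77 ± 0.92). H2-D1 (4.20 ± 1.41, adjusted p 0.0782) and B2m (4.37 ± 1.39, adjusted p 0.0645) kept large differences but missed the threshold. Without libraries over a 5% share, which leaves HSC.1 alone, 7 members were called, with 9.23% of all transcripts called higher, and H2-K1 differed by 5.32 ± 0.76. Tapbp (adjusted p 0.189) and Nlrc5 (difference 0.92) were not called there. Here the lone HSC sample is assumed to vary like the other groups.

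**Figure D5:**
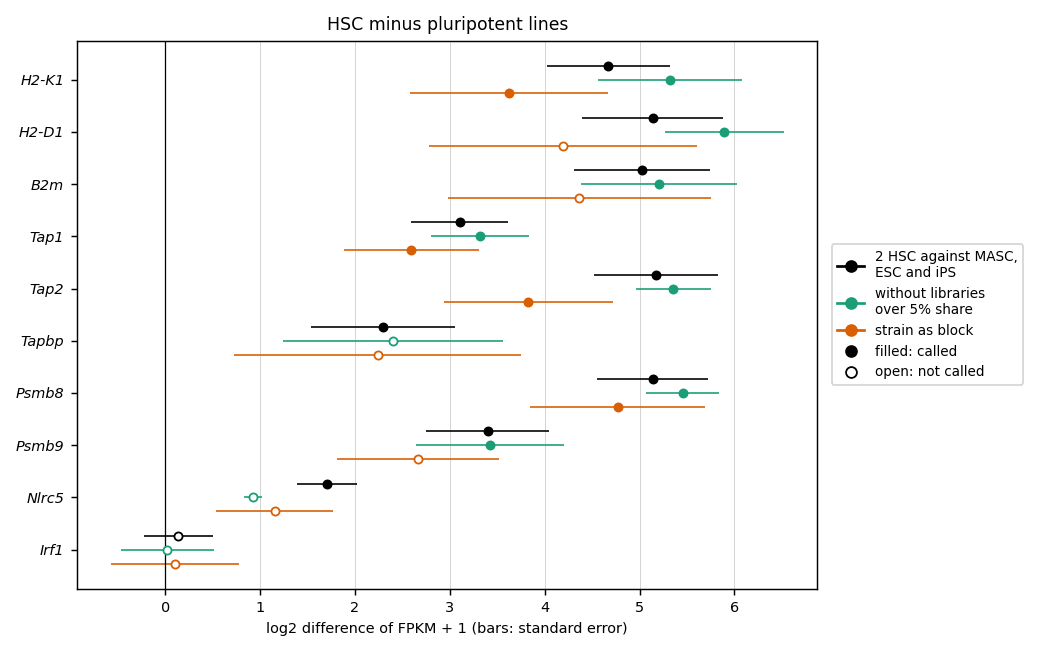
Log2 difference of FPKM + 1 between HSC cultures and the mean of the pluripotent groups for each member, with bars of 1 standard error, for all samples, without libraries over a 5% fibroblast share, and with strain as a block. Filled points were called, and Tap1, Tap2, Psmb8 and H2-K1 are filled in all 3 fits, while Irf1 lies at 0.14, 0.021 and 0.10.

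The strain label was tested within the SSC, MASC and ESC lines, as Oct4-GFP minus 129mix with cell type in the fit (5 and 4 lines). All 10 differences were above 0, with a median of 0.68 against 0.00 over all transcripts, but no member was called by limma. Of all transcripts 0.00919% were called higher and 0.0153% lower. An unadjusted p under 0.05 was found for 3 of 10 members and for 4854 of the 32661 transcripts. The 3 members were Tap2 (1.27 ± 0.48, adjusted p 0.294), Psmb9 (1.15 ± 0.46, adjusted p 0.318) and Tap1 (0.79 ± 0.29, adjusted p 0.281). The Oct4-GFP lines also had the larger fibroblast shares, with a median of 5.67% against 1.48% in the 129mix lines. With that share as a covariate the difference of Tap2 was 0.46 ± 0.23, of Psmb9 0.65 ± 0.49 and of Tap1 0.32 ± 0.17. B2m (-0.39), Tapbp (-0.99), Nlrc5 (-0.18) and Irf1 (-0.36) then lay below 0.

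Other genes of the pathway were read from lists. Among 24 regulators of class I, MASCs had 10 lower (41.7%) and 1 higher (4.17%) than SSCs, against 9.6% and 6.04% of all transcripts, with a median difference of -0.55. Irf8, another interferon regulatory factor, fell by 4.45 ± 0.21 on the log2 scale, from 17.2 to 43.4 FPKM in SSCs to at most 0.498 FPKM in MASCs. The interferon receptor kinases Jak1 (-2.32 ± 0.18, 66.3 to 85.1 FPKM against 10.5 to 22.4) and Jak2 (-1.99 ± 0.21) were lower as well. The 3 genes were also called without MASC.1 and in both fits that take the fibroblast share into account. In HSCs 9 of the 24 were higher (37.5%) and 1 lower than in pluripotent lines, against 10.3% and 11.2% of all transcripts, led by Irf2 (3.15 ± 0.40), the interferon-gamma receptor chain Ifngr1 (2.88 ± 0.34) and Jak2 (2.40 ± 0.38).

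Of 20 other class I and class I-like genes, 2 were lower (10.0%) and 1 higher (5.0%) in MASCs, shares close to the 9.6% and 6.04% of all transcripts, with a median difference of 0.02. H2-Q7 differed by -3.54 ± 0.80 and H2-M3, which presents formylated peptides, by -2.48 ± 0.18, while H2-M5 was higher by 2.72 ± 0.29. H2-M5 was at 4.02 to 14.3 FPKM in MASCs against 0.468 to 0.676 FPKM in SSCs. H2-Q7 was at 0.331 FPKM in SSC.1 and at 20.5 to 35.1 FPKM in the other SSC lines, it overlaps a near-identical copy (H2-Q9), and its split between them is uncertain. In HSCs 13 of the 20 were higher (65.0%) and 1 lower (5.0%), against 10.3% and 11.2% of all transcripts. The largest differences were those of H2-Q7 (4.51 ± 1.00), H2-T23 (3.98 ± 0.68) and H2-Q1 (2.92 ± 0.40). H2-Q7 was not called in HSCs without HSC.1 (3.10 ± 1.25, adjusted p 0.0918), nor in MASCs with strain as a block (-3.31 ± 1.11, adjusted p 0.0730).

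Among 9 genes of peptide loading and trimming, MASCs had 1 lower and 1 higher (11.1% each, against 9.6% and 6.04% of all transcripts). Erap1, the aminopeptidase that trims peptides in the endoplasmic reticulum, differed by -2.63 ± 0.23, with 9.28 to 19.7 FPKM in SSCs against 1.14 to 2.55 in MASCs. Sec61b, a subunit of the translocation channel, was higher by 1.40 ± 0.18. In HSCs Calr (1.89 ± 0.25) and Erap1 (1.82 ± 0.31) were higher (22.2%, against 10.3% of all transcripts) and none of the 9 was lower. Of 11 proteasome genes MASCs had 1 lower (9.09%) and 2 higher (18.2%). Psme2, a subunit of the interferon-inducible PA28 activator, differed by -1.66 ± 0.24, while the activator Psme4 (1.21 ± 0.22) and the core subunit Psma3 (1.15 ± 0.12) were higher. HSCs had 2 of the 11 higher, Psmb10 (1.66 ± 0.49) and Psme1 (1.21 ± 0.27), and 3 lower (27.3%, against 11.2% of all transcripts), led by Psme4 (-1.98 ± 0.29). Without the libraries over a 5% fibroblast share, Psme4 (0.998, adjusted p 0.0414) and Psma3 (0.971, adjusted p 5.83e-03) were just under the difference of 1 that a call in MASCs requires. Psmb10 was not called in HSCs without HSC.1 (1.83, adjusted p 0.0675) or without HSC.2 (1.49, adjusted p 0.147).

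Of 22 interferon-stimulated genes, 3 were higher (13.6%) and 2 lower (9.09%) in MASCs than in SSCs, against 6.04% and 9.6% of all transcripts, with a median difference of 0.27. Ddx58, the RNA sensor RIG-I, was higher by 2.97 ± 0.30, with 0.735 to 0.954 FPKM in SSCs and 5.87 to 19.0 in MASCs. Oasl2 (-2.66 ± 0.65) and the GTPase Igtp (-1.70 ± 0.39) were lower. With strain as a block their differences were about as large, at -2.62 ± 0.92 (adjusted p 0.0834) and -1.77 ± 0.54 (adjusted p 0.0551), and missed the threshold. In HSCs 3 of 22 were higher (13.6%, close to the 10.3% of all transcripts), namely Ifi35 (2.60 ± 0.59), Igtp (2.14 ± 0.56) and Ifih1 (1.19 ± 0.41), and each of the 3 missed the threshold without HSC.2, where they differed by 2.29, 1.41 and 0.52. The summed FPKM of the 22 genes was 544 in MASC.1, 549 in iPS.2, 567 in HSC.2 and 792 in MEF, against 106 to 300 in the other samples. Bst2 alone made up 309, 338, 236 and 362 FPKM of these 4 sums. In iPS.2, where the fibroblast share was 0.359%, 9 of the 10 members were above iPS.1, with H2-D1 at 37.4 against 8.55 FPKM and B2m at 69.1 against 10.5 FPKM. Irf1 was the exception.

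Class II genes summed to 3.61 to 22.1 FPKM in the SSC, MASC, ESC and iPS lines and to 88.8 and 54.6 FPKM in HSCs. Of 7, MASCs had 1 lower (14.3%, against 9.6% of all transcripts), H2-DMa (-1.79 ± 0.24), and none higher. In HSCs 4 of 7 were higher (57.1%, against 10.3% of all transcripts), led by H2-DMb1 (3.93 ± 0.34), H2-Ab1 (3.69 ± 0.59) and H2-DMa (2.05 ± 0.30). H2-Ab1, the beta chain of the class II molecule, was at 39.6 and 8.39 FPKM in the HSC cultures and at 0.203 to 0.842 FPKM in the pluripotent lines. In ESCs against SSCs, 9 of 24 regulators were lower (37.5%) and 2 higher (8.33%), against 8.75% and 4.96% of all transcripts, led by Irf8 (-4.49 ± 0.28), Jak1 (-2.28 ± 0.24) and Ifngr1 (-2.27 ± 0.37), and Erap1 differed by -2.91 ± 0.31. Between ESCs and MASCs none of the genes in these 6 lists was called by limma, with 0 at an unadjusted p under 0.05, against 954 of the 32661 transcripts. Between the strain labels none was called either. An unadjusted p under 0.05 was found there for 8 of 20 other class I and class I-like genes and 6 of 24 regulators. It was found for 3 of 9 peptide loading, 3 of 11 proteasome, 1 of 22 interferon-stimulated and 2 of 7 class II genes. Among all 32661 transcripts it was found for 4854.

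Genes with a pattern like that of each member were sought among 13637 other genes with a mean of at least 1 FPKM, by Pearson's r of log2(FPKM + 1) over the 17 samples. For H2-K1 these were Itm2b (0.967), Tgfb1 (0.962) and Itm2c (0.960), and for H2-D1 Itm2b (0.973), Gm7030 (0.961) and Tgfb1 (0.959). B2m was followed by Itpripl2 (0.969), Plekho2 (0.962) and Osbpl5 (0.955), and Tap2 by Itm2b (0.973), Uba7 (0.968) and Nucb1 (0.968). Tap1 had H2-K2 (0.946), S100a1 (0.946) and P2rx4 (0.945), and Tapbp had Dexi (0.937), Ifi27l2a (0.929) and Kazald1 (0.924). Psmb8 had Fes (0.974), Ly6i (0.966) and H2-Q1 (0.961), Psmb9 had Hk1 (0.929), B9d2 (0.921) and Ndrg1 (0.920), and Nlrc5 had Tnik (0.911), Cebpa (0.910) and Slc6a4 (0.909). Irf1 was followed by Slc26a6 (0.964), Ttc21b (0.960) and Dnaaf3 (0.955). These r values are descriptions over samples that share their cell type with others, and no test was made on them.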

How the data were processed

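RNA was sequenced as TruSeq libraries on an Illumina HiSeq from 17 samples. The authors aligned reads to mm9 with TopHat2 (2.0.11, as named in the submitters' processing notes), excluded duplicates and reads mapping to several places, and deposited FPKM per RefSeq transcript from Cufflinks, with upper-quartile and GC normalization. The deposited read coverage per base, made in the same Cufflinks step, was used for precision only. Read counts were not used here. Coverage worth 1 FPKM was 1.26 to 3.23 reads per base, and the interval around a member's FPKM had a median half-width of 7.66% of the value.

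The 33262 rows of each file were reduced to 32661 transcripts by leaving out 601 rows for further loci. No filter was applied. Log2(FPKM + 1) was fitted with limma 3.58.1 in R 4.3.3, without trend, with 1 mean per cell type. MASC, ESC and SSC lines shared 1 fit, HSCs were compared in a fit of all 17 samples, and the strain fit added the strain label. Scripts were tested on simulated data. P-values were adjusted over all transcripts by Benjamini-Hochberg. Fold changes on this scale understate changes of low genes such as Nlrc5.

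The members, gene lists and tests were chosen with earlier results of these data known. All 10 members were named in each comparison, with up to 3 called genes of each list with the largest differences, and the 3 genes with the highest r to each member. The alternatives were a pseudocount of 0.1, a filter of 1 FPKM in 2 samples, quantile normalization, summed transcripts, the study's rule (a log2 difference of 2 and an unadjusted p under 0.05), the replicate number or the strain as a block, and each line left out. Leaving out libraries over a 5% fibroblast share, and the log2 of that share plus 0.01 as a covariate, were added after seeing the data. Promoter windows came from RefSeq tables of GRCm38.p6, with no coordinates carried over from mm9.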

Additional observations from a re-analysis of the deposited data

Results flagged for a closer look

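In MASC.1, H2-D1 (98.4 FPKM), B2m (231 FPKM), Tap1 (10.9 FPKM) and Nlrc5 (0.437 FPKM) stood farther above the other 5 MASC lines than Dixon's 95% limit allows. In all, 20 groups were examined, the SSC and the MASC lines of each member. Chance alone marks about 1 in 20 of such groups when they are independent. The members are correlated and all 4 flags fell on MASC.1, so they are not separate events. MASC.1 had a fibroblast share of 25.9% and interferon-stimulated genes at 544 FPKM in sum (309 of it Bst2), and their part in these levels was not tested.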

How the results depend on the processing

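In MASCs against SSCs, Irf1 was called lower under every alternative, with differences of -2.40 to -1.88 when single lines were left out, and no member changed sign. Members lower in this comparison numbered 3 with a pseudocount of 0.1, 2 with the filter on low values, 2 with summed transcripts, 3 without libraries over a 5% fibroblast share and 3 with that share as a covariate, against 1, and 1 to 6 when lines were left out. Transcripts higher and lower were 1972 and 3137, 4723 lower with the pseudocount, 590 and 721 by the study's rule, 2335 and 2435 with quantile normalization, which shifted the median of SSC lines by -0.18 to -0.14, and 1811 to 2012 and 2954 to 3232 with lines left out. In ESCs against SSCs, members lower were 2 with the filter, 2 by the study's rule, 3 with the covariate and 1 to 2 with lines left out. Transcripts were 1620 and 2859, 1955 and 2098 with quantile normalization, 643 and 828 by the study's rule, 961 and 1643 with the replicate block, and 1222 to 1657 and 1878 (without ESC.2) to 2977 with lines left out. Tap1 turned to 0.20 with quantile normalization and 0.064 with the strain block, and ranged from -0.62 to 0.41 with lines left out, as did Psmb8 from -0.60 to 0.0030. In ESCs against MASCs, transcripts were 5 and 1, 10 and 3 with the pseudocount, 35 and 13 by the study's rule, 2 and 0 with the replicate block, 0 lower with the strain block, 36 higher without libraries over 5%, and 4 to 32 and 1 to 3 with lines left out. Irf1 turned there to 0.017 with quantile normalization, 0.0095 with summed transcripts, 0.091 with the replicate block, 0.19 with the strain block and 0.054 without libraries over 5%, where H2-D1 (0.080) and B2m (0.76) turned too, and Nlrc5 turned to -0.039 with the covariate. With lines left out the ranges were -0.46 to 0.10 (H2-D1), -0.60 to 0.36 (B2m), -0.92 to 0.12 (Tap1), -0.76 to 0.10 (Tap2), -1.24 to 0.15 (Tapbp), -0.35 to 0.14 (Psmb9), -0.041 to 0.13 (Nlrc5) and -0.092 to 0.15 (Irf1). In HSCs against pluripotent lines, 3359 and 3672 transcripts became 1513 and 1295 by the study's rule and 2193 and 2262 with the strain block, where 4 members were higher. With samples left out they were 2874 to 3468 and 2770 to 3759, with 7 to 9 members higher, and Irf1 ranged from -0.0055 to 0.29. Between the strain labels, 3 and 5 transcripts became 1 and 2 with the pseudocount, 1 and 1 with the filter, 1 and 2 with quantile normalization, 44 and 24 by the study's rule, 1 and 0 without libraries over 5%, 1 and 1 with the covariate, and 0 to 194 and 0 to 249 with lines left out (highest without SSC.2). Tapbp turned to -0.12 with quantile normalization. Without libraries over 5% Tapbp (-0.91), Nlrc5 (-0.16) and Irf1 (-0.31) turned, and with the covariate B2m (-0.39), Tapbp (-0.99), Nlrc5 (-0.18) and Irf1 (-0.36). With lines left out the ranges were -0.033 to 1.02 (H2-D1), -0.35 to 0.60 (B2m), -0.31 to 1.32 (Tapbp) and -0.040 to 0.15 (Nlrc5). With the replicate block there were 25 and 18 transcripts, and H2-D1 (-0.43), B2m (-1.86), Tap2 (-0.78), Psmb8 (-1.19), Psmb9 (-0.53), Nlrc5 (-0.76) and Irf1 (-1.15) turned. Lines with the same number in their names did not deviate together (r 0.05 on average over 8 pairs, -0.36 to 0.41), so the numbers were not taken as pairing. The cause of these changes was not tested. Feeder RNA, strain and cell type overlap in these lines, 2 samples stand for ESCs, iPS cells and HSCs each, and FPKM without counts leave no test of sampling noise. Low values of Nlrc5 limit what can be said of it in pluripotent lines.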
